A study of Drosophila melanogaster with 14 samples.

Results

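The Eig71E genes of Drosophila melanogaster were examined in whole larvae of the last instar from 4 genotypes. They were taken by symbol, Eig71Ea to Eig71Ej, and all 10 were present once each among the 17869 genes of the deposited table. RNA selected for poly(A) tails was sequenced in bulk from the white-eyed control stock w1118 (n = 4), from single mutants carrying Sep2[2] (n = 3) or Sep5[2] (n = 3), and from larvae homozygous for both alleles, Sep2[2];Sep5[2] (n = 4). Sep2 and Sep5 encode septins, proteins that bind GTP and form filaments under the cell membrane. No transgene or treatment is named for any group, the age within the instar, the sex and the number of larvae in a library are not given in the sources used here, and flies were kept at 25°C.

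The Eig71E genes, also called the L71 late genes, lie in a late puff of the salivary gland polytene chromosomes. At the end of larval life the steroid hormone ecdysone first induces regulators such as the Broad factors (br) and E74 (Eip74EF), and these in turn switch on the late genes in the salivary gland as the animal becomes a prepupa. Most of the genes encode small secreted peptides rich in cysteine, likened to defensins, whereas Eig71Ee encodes a larger mucin-like protein that is made with the salivary glue and is also found in the blood clot.

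The 10 genes lay on chromosome arm 3L between 15649126 and 15661015 (BDGP6, Ensembl release 115), a stretch of 11.9 kb, and all were annotated as protein coding. Of these, 8 formed divergent pairs within the set, with starts 275 bp apart for Eig71Ea and Eig71Eb, 283 bp for Eig71Ec and Eig71Ed, 238 bp for Eig71Ef and Eig71Eg, and 266 bp for Eig71Eh and Eig71Ei. Eig71Ej started 233 bp from Eig71Ek, which the symbol rule did not include. Eig71Ee (15654472 to 15656010, minus strand) had no divergent partner and, at 1486 bp of exon, was the longest of the 10, since the others held 403 to 639 bp. No member overlapped another gene, but Eig71Ea (15649126 to 15649661, minus strand) and CG43083 on the plus strand abutted at their 3′ ends, so reads of the 2 genes may have been divided differently by another annotation.

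**Figure D1:**
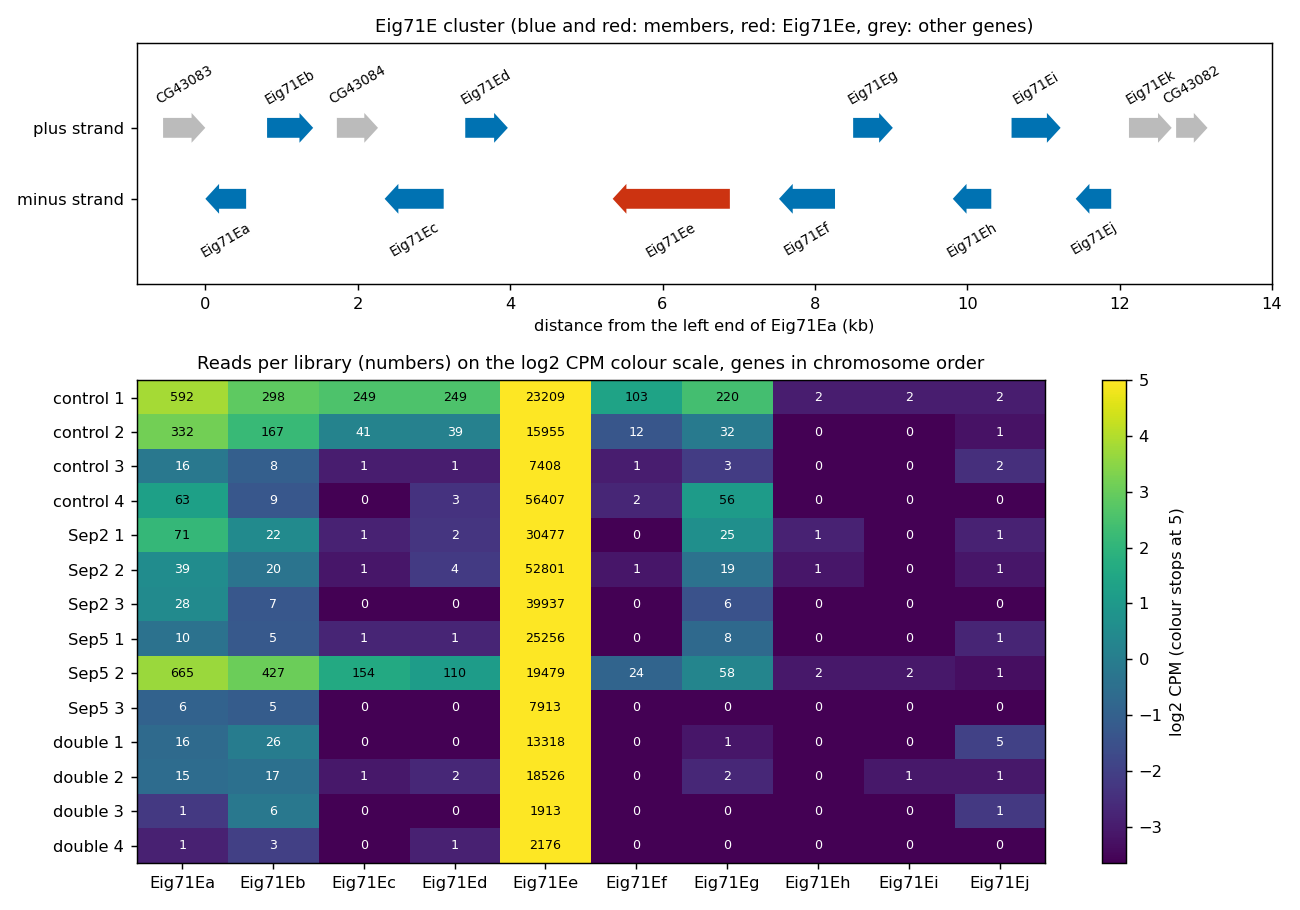
The upper panel maps the Eig71E genes by distance in kb from the left end of Eig71Ea, with arrows for strand, and the lower panel gives reads per gene (columns) and library (rows), coloured by log2 CPM with the colour scale ending at 5. Eig71Ee held 1913 reads or more in every library, while the small peptide genes from Eig71Ea to Eig71Eg held most of theirs in control replicates 1 and 2 and Sep5 mutant replicate 2.

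Reads per library ranged from 8858393 (double mutant replicate 3) to 47203028 (Sep5 mutant replicate 2), so 1 read was worth 0.134 CPM in the shallowest and 0.0194 CPM in the deepest. CPM below is the authors' scaled log2 CPM taken back to the linear scale with the floor of the table, 0.0797 CPM, taken off. In the Sep5 mutant Septin5 lay between 0 and 0.0681 CPM against 3.58 to 7.84 CPM in the control. Septin2 was at 0.270 to 9.11 CPM in the double mutant, with the highest value in replicate 4, against 46.6 to 67.2 CPM in the control. In the library group labelled Sep2 mutant Septin2 stood at 21.7 to 29.4 CPM, below every control library, without passing the test (limma log2 fold change -1.09, SE 0.76, Benjamini-Hochberg adjusted p = 0.410). What the allele removes is not stated in the sources used here. Larval serum and cuticle protein markers summed to 18775 to 74409 CPM over the 14 libraries and markers of adults to 1.12 to 4.04 CPM, whereas the protocol text speaks of adult flies collected within 3 days of eclosion.

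Eig71Ee, the mucin-like member, was by far the most abundant per length. Its mean over the 14 libraries was 638 CPM per kb of exon, against 8.42 for Eig71Ea, 3.97 for Eig71Eb, 2.18 for Eig71Eg, 1.68 for Eig71Ed, 1.15 for Eig71Ec and 0.582 for Eig71Ef. Eig71Ej, Eig71Eh and Eig71Ei followed at 0.125, 0.0295 and 0.0169 CPM per kb. Between 93.1% and 99.9% of the summed CPM of the 10 genes came from Eig71Ee in each library. The 9 others together held 4336 reads in 14 libraries, and are described apart from it.

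The floor of the table, where a library has no read, was reached by 7 of the 10 genes. Eig71Ea, Eig71Eb and Eig71Ee had reads in all 14 libraries. Eig71Eg was at the floor in 3 libraries, Eig71Ed and Eig71Ej in 4 each, Eig71Ec in 6, Eig71Ef in 8, Eig71Eh in 10 and Eig71Ei in 11. A gene entered the test when it exceeded 0 log2 CPM in at least 3 libraries. This was met by 6 members (Eig71Ea, Eig71Eb, Eig71Ec, Eig71Ed, Eig71Ee and Eig71Eg) and missed by 4 (Eig71Ef, Eig71Eh, Eig71Ei and Eig71Ej). Members other than Eig71Ee passed it largely through the libraries where they were high, so counts and medians over the 6 describe them and support nothing.

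**Figure D2:**
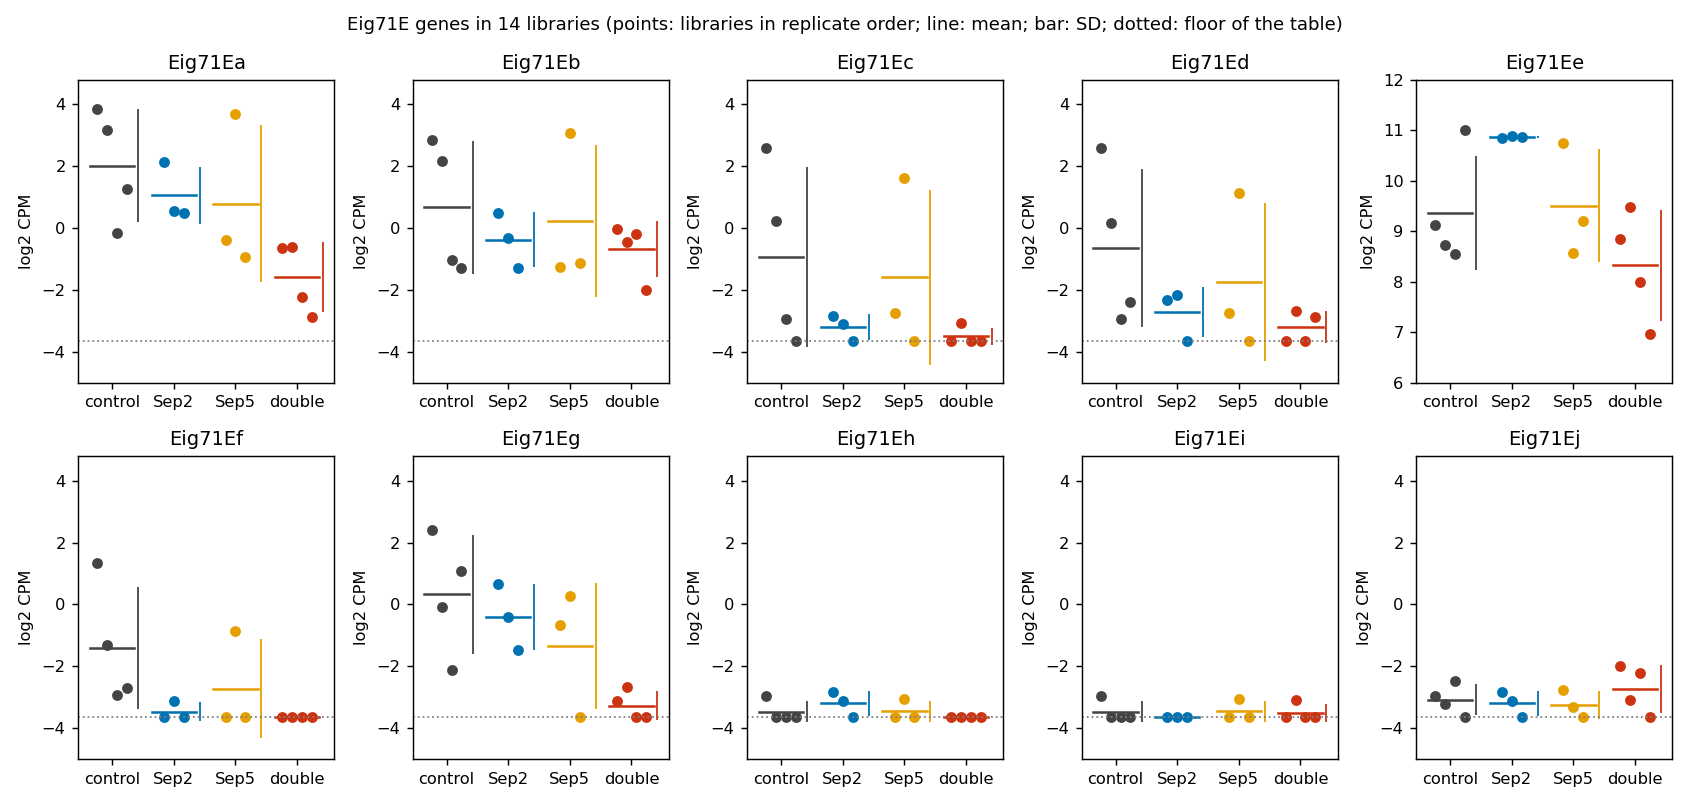
Each panel plots log2 CPM of 1 Eig71E gene in the 14 libraries by genotype, with points in replicate order, a line at the mean, a bar for the SD and a dotted line at the floor of -3.65; the Eig71Ee panel has its own axis. The 4 double mutant values of Eig71Ea and of Eig71Eg lie under all 4 control values, and the Sep2 mutant values of Eig71Ee lie between 1841 and 1889 CPM.

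Eig71Ee stood at 558, 426, 375 and 2068 CPM in control replicates 1 to 4. It stood at 1841, 1889 and 1869 CPM in the Sep2 mutant, at 1720, 378 and 591 CPM in the Sep5 mutant and at 460, 715, 256 and 124 CPM in the double mutant. All 3 Sep2 mutant libraries were high and nearly equal, with an SD of 0.02 on the log2 scale against 1.13 in the control. Control replicate 4 was higher still, Sep5 mutant replicate 1 lay just under them, and the other 9 libraries lay at 715 CPM or lower. Sep2 mutant libraries therefore overlapped the control, through control replicate 4 alone, and overlapped neither the Sep5 mutant nor the double mutant.

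Eig71Ee fell in the double mutant relative to the Sep2 mutant, in 4 of 4 libraries (limma log2 fold change -2.55, SE 0.65, Benjamini-Hochberg adjusted p = 0.0108). Over 24 alternatives it was called in 24, with adjusted p from 6.41e-05 to 0.0393. Relative to the control it did not pass the test in the double mutant (-1.03, SE 0.60, adjusted p = 0.177), in the Sep2 mutant (1.51, SE 0.65, adjusted p = 0.202) or in the Sep5 mutant (0.15, SE 0.65, adjusted p = 0.921), all by limma. The Sep2 mutant was called higher than the control when libraries were given quality weights (adjusted p = 0.000839), within a range of 0.000839 to 0.355 over the alternatives. The interaction, the double mutant difference less those of both single mutants, was -2.70 (SE 0.92, limma adjusted p = 0.110). It was called with quality weights (0.00549) and without control replicate 4 (0.0368), within 0.00549 to 0.237. The double mutant against the Sep5 mutant (-1.19, SE 0.65, adjusted p = 0.256) and the Sep2 against the Sep5 mutant (1.36, SE 0.70, adjusted p = 0.396) did not pass by limma.

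Eig71Ee followed the glue genes from library to library. The 7 Sgs genes, which encode the glue secreted by the salivary gland, summed to 6783, 5954, 4545 and 18788 CPM in control replicates 1 to 4, and to between 18176 and 21443 CPM with the Sep2 mutation alone. They summed to 14156, 3755 and 5993 CPM in the Sep5 mutant, and to 2698, 6306, 1262 and 732 CPM in the double mutant. The libraries high for Eig71Ee were thus those high for the Sgs genes. Among the tested genes that are no members, those most like the summed Eig71E level, which is nearly all Eig71Ee, were Sgs5 (Pearson r = 0.960 over 14 libraries), Sgs3 (0.957), Sgs7 (0.949), the proteasome subunit gene Prosbeta2 (0.946) and CG43679 (0.939). With genotype means taken off, r was 0.939 for Sgs5 and 0.971 for Sgs3. These libraries share larvae of 4 genotypes and 1 scaling, and the r values are descriptions.

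As a percentage of the summed Sgs CPM, Eig71Ee was 8.22, 7.15, 8.24 and 11.0 in the control and 8.81 to 10.1 in the Sep2 mutant. It was 12.2, 10.1 and 9.86 in the Sep5 mutant and 17.1, 11.3, 20.3 and 16.9 in the double mutant. All 4 double mutant values lay above all 4 control values, by 11.3 against 11.0 at the closest, and Sep5 mutant replicate 1 lay above double mutant replicate 2. Most Sgs genes were themselves called lower in the double mutant, so a gene that falls less has a higher percentage. How many other genes separate in this way was not computed. In whole larvae, fewer cells of a type and less RNA per cell cannot be told apart.

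**Figure D3:**
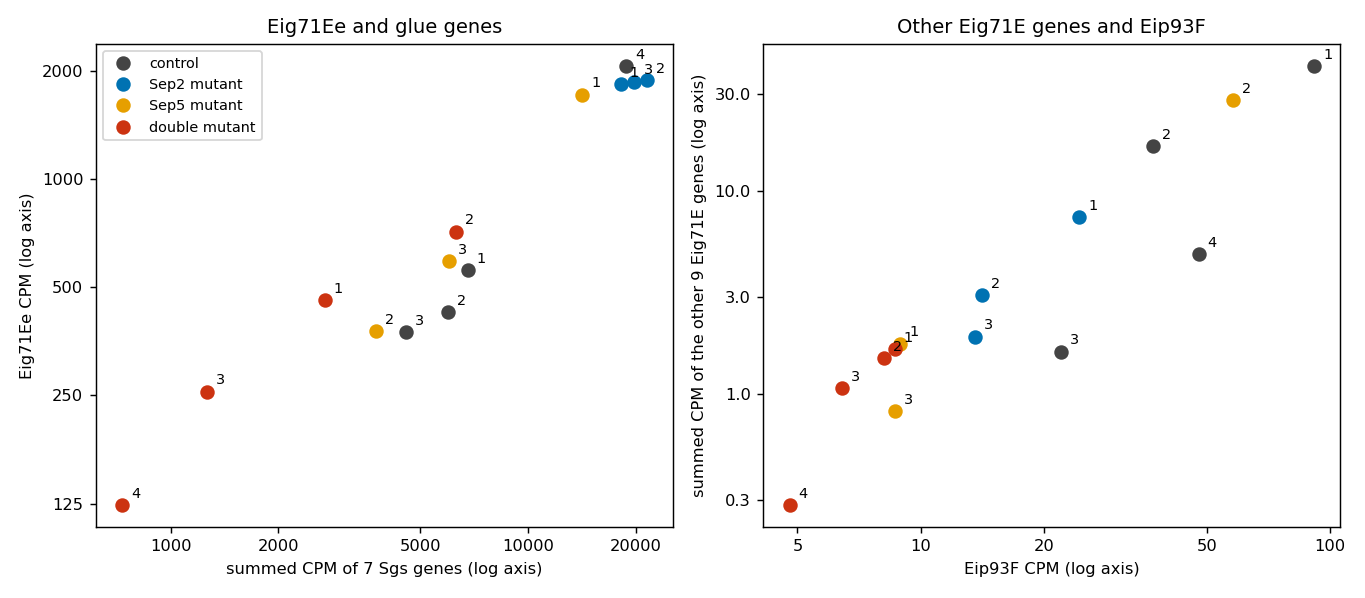
Both panels plot 1 point per library, coloured by genotype and numbered by replicate, on log axes in CPM: Eig71Ee against the sum of 7 Sgs genes (left) and the sum of the other 9 Eig71E genes against Eip93F (right). Control replicate 4, the Sep2 mutant libraries and Sep5 mutant replicate 1 sit together at the upper right on the left, while control replicates 1 and 2 and Sep5 mutant replicate 2 hold the highest sums on the right.

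Salivary gland and blood cell markers were set beside Eig71Ee. The 9 salivary gland markers had summed levels of 4634 to 17878 CPM in control larvae and 18172 to 21331 CPM in Sep2 mutants, and of 3913 to 14247 CPM in Sep5 mutants and 897 to 6486 CPM in double mutants, with no marker at 0 in a whole group. Of the 9, Sgs1, Sgs3, Sgs5, Sgs7 and Sgs8 fell in the double mutant relative to the control and none rose. In that comparison 22.5% of all tested genes were called lower. The gland transcription factor genes among the 9 markers did not pass that test by limma, with fkh at -0.11 (SE 0.20, adjusted p = 0.680), CrebA at -0.09 (SE 0.22, adjusted p = 0.775) and sage at -0.57 (SE 0.30, adjusted p = 0.136). The 9 hemocyte markers had summed levels of 314 to 561 CPM in control larvae and 414 to 1094 CPM in Sep2 mutants, and of 273 to 362 CPM in Sep5 mutants and 560 to 841 CPM in double mutants, again with none at 0 in a group. Relative to the control, Hml, Pxn and Sr-CI rose and srp fell in the double mutant, and NimC1 and srp fell in the Sep2 mutant. Of 12586 tested genes, 2832 were called higher and 2826 lower in the double mutant, and 156 lower in the Sep2 mutant. The part of either cell type in the Eig71Ee values was not tested.

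The small peptide genes followed another order of libraries. Of the 4336 reads of the 9 members other than Eig71Ee, 3784 (87.3%) came from control replicates 1 and 2 and Sep5 mutant replicate 2. Their summed CPM in these 3 libraries was at least 16.7, and in the other 11 libraries it lay between 0.285 and 7.43. The 3 libraries held 97.5% of the CPM of Eig71Ec summed over all libraries, 95.3% of that of Eig71Ef, 93.6% of Eig71Ed, 75.8% of Eig71Eb, 74.1% of Eig71Ea and 57.7% of Eig71Eg. For Eig71Ee the share was 10.3%. High libraries thus occurred in 2 genotypes and not in all libraries of either.

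Eig71Ea, one of the small peptide genes, stood at 14.2, 8.86, 0.809 and 2.31 CPM in control replicates 1 to 4. It stood at 4.29, 1.39 and 1.31 CPM in the Sep2 mutant, at 0.681, 12.9 and 0.448 CPM in the Sep5 mutant and at 0.553, 0.579, 0.134 and 0.0570 CPM in the double mutant. Every double mutant library was lower than every control and every Sep2 mutant library, and the Sep5 mutant overlapped all groups. Pooled over libraries, the double mutant had 33 reads (0.413 CPM) and the control 1003 (7.95 CPM), and the exact 95% interval of their ratio ran from 3.56% to 7.35%, covering counting error only. Control replicate 1 held 592 of the 1003 reads, and without it the ratio was 8.50% (5.77% to 12.1%).

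Eig71Eg, a small peptide gene at 15657628 to 15658149 on the plus strand, stood at 5.29, 0.854, 0.152 and 2.05 CPM in the control. It stood at 1.51, 0.680 and 0.281 CPM in the Sep2 mutant, at 0.545, 1.13 and 0 CPM in the Sep5 mutant and at 0.0346, 0.0772, 0 and 0 CPM in the double mutant. The double mutant, with 3 reads in all against 311 in the control, lay under every control and every Sep2 mutant library. Its rate was 1.52% of the control rate (95% exact interval 0.312% to 4.49%), 3.49% without control replicate 1, which held 220 of the 311 reads, and 0.752% without double mutant replicate 2. The lowest control value was 3 reads (0.152 CPM, replicate 3). In double mutant replicate 3, which had no read, 1 read was worth 0.134 CPM, so that library resolves the separation poorly.

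Relative to the control, 2 of the 6 tested members fell in the double mutant and none rose, beside 22.5% of all 12586 tested genes called lower. Eig71Ea fell in 4 of 4 libraries (limma log2 fold change -3.61, SE 1.01, Benjamini-Hochberg adjusted p = 0.0103). Eig71Eg fell in 4 of 4 libraries as well (-3.60, SE 0.92, limma adjusted p = 0.00609). The median log2 fold change of the 6 was -2.57, and that of all tested genes -0.01. Eig71Ea was called under 24 of 24 alternatives (adjusted p 0.00236 to 0.0463) and Eig71Eg under 23 of 23 (0.00135 to 0.0231). Without double mutant replicate 4, where Septin2 was highest, the adjusted p was 0.0339 for Eig71Ea and 0.0169 for Eig71Eg. The fitted changes depended on the added count, and with 1 CPM added they were -2.06 for Eig71Ea and -1.30 for Eig71Eg.

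Every double mutant library lay under every control library for 2 of the 6 tested members, Eig71Ea and Eig71Eg, beside 19.4% of all tested genes, and also for Eig71Ef, which did not pass the filter. For Eig71Ef the lowest control value was 1 read (0.0506 CPM, replicate 3), below the worth of 1 read in double mutant replicate 3 (0.134 CPM). The reads thus do not resolve that separation. For Eig71Eg the lowest control value, 3 reads (0.152 CPM, replicate 3), lay little above that worth of 1 read, so its separation was poorly resolved there. Against the Sep2 mutant the double mutant was lower without overlap for 3 of the 6, Eig71Ea, Eig71Ee and Eig71Eg, beside 17.1% of all tested genes. Against the Sep5 mutant no member was lower without overlap, beside 8.76%. Relative to the control, no tested member was lower without overlap in the Sep2 mutant, beside 7.49%, or in the Sep5 mutant, beside 5.32%. Eig71Ef was so in the Sep2 mutant, but by 1 read in Sep2 mutant replicate 2 (0.0358 CPM) against 1 read in control replicate 3 (0.0506 CPM). These values differ only by depth.

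Eig71Eb, the divergent partner of Eig71Ea, had 298, 167, 8 and 9 reads in the control and 22, 20 and 7 in the Sep2 mutant. It had 5, 427 and 5 reads in the Sep5 mutant and 26, 17, 6 and 3 in the double mutant. Its groups overlapped, and the double mutant did not pass the test against the control (-1.34, SE 1.04, limma adjusted p = 0.316). In control replicate 4 Eig71Ea had 63 reads and Eig71Eb 9, whereas in double mutant replicates 1 and 2 Eig71Eb had more reads (26 and 17) than Eig71Ea (16 and 15).

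Eig71Ec and Eig71Ed, another divergent pair of small peptide genes, were high in the same libraries, with nearly equal reads in control replicates 1 and 2 and more of Eig71Ec in Sep5 mutant replicate 2. Eig71Ec had 249, 41, 1 and 0 reads in the control, 1, 1 and 0 in the Sep2 mutant, 1, 154 and 0 in the Sep5 mutant and 0, 1, 0 and 0 in the double mutant. Eig71Ed had 249, 39, 1 and 3 reads in the control, 2, 4 and 0 in the Sep2 mutant, 1, 110 and 0 in the Sep5 mutant and 0, 2, 0 and 1 in the double mutant. Both were thus near the floor in every library but control replicates 1 and 2 and Sep5 mutant replicate 2, and the groups overlapped. Neither passed the limma test for the double mutant against the control, with Eig71Ed at -2.57 (SE 1.14, adjusted p = 0.0799) and Eig71Ec at -2.57 (SE 1.24, adjusted p = 0.107). Eig71Ed was called without control replicate 3 (0.0325) and with the replicate number as a block (0.0494), and Eig71Ec without control replicate 4 (0.0375).

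Eig71Ef, the divergent partner of Eig71Eg, had 103, 12, 1 and 2 reads in the control, 0, 1 and 0 in the Sep2 mutant, 0, 24 and 0 in the Sep5 mutant and none in the double mutant. With 0 reads against 118, its rate in the double mutant was at least 24.9-fold lower than in the control, at a floor of 3 reads over the group. Control replicate 1 held 103 of the 118 reads, and without it the interval reached 29.5% and the floor gave 4.73-fold. Without double mutant replicate 1 they were 7.86% and 15.9-fold. It did not pass the filter, and in a limma fit without one its difference did not pass the test (-2.25, SE 0.90, adjusted p = 0.0821). The partners were not alike in every library, since in control replicate 4 Eig71Eg had 56 reads and Eig71Ef 2. Eig71Eh and Eig71Ei, the last divergent pair of small peptide genes, had 6 and 5 reads over all 14 libraries and never more than 2 in one. Eig71Ej had 16 reads and at most 5, in double mutant replicate 1. Differences between genotypes were not detectable for these 3 genes at this depth.

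Relative to the Sep2 mutant, 2 of the 6 tested members fell in the double mutant, Eig71Ee and Eig71Eg, beside 12.9% of all tested genes called lower. Eig71Eg was at -2.88 (SE 0.99, limma adjusted p = 0.0429), lower in 4 of 4 libraries. That call was lost without control replicate 2 (0.0513), Sep2 mutant replicates 1 (0.163) or 2 (0.110), or any 1 double mutant library (0.0614, 0.0552, 0.0802 and 0.0854 for replicates 1 to 4). It was lost too without a filter (0.0998), with 1 CPM added (0.187), with quantile normalization (0.0742) and by voom (0.0915), within 0.000546 to 0.187 over the alternatives. Eig71Ea did not pass (-2.64, SE 1.10, limma adjusted p = 0.0826). It was called with quality weights (0.00414), with the libraries of both groups alone (0.0180) and without Sep5 mutant replicate 2 (0.0314), within 0.00414 to 0.244.

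No member was called by limma in the Sep2 mutant against the control (4.50% of all tested genes called), the Sep5 mutant against the control (5.13%), the double against the Sep5 mutant (8.91%), the Sep2 against the Sep5 mutant (2.43%) or the interaction (4.47%). At an unadjusted p under 0.05 the counts were 1, 0, 1, 0 and 1 of 6 in these comparisons, in that order. By voom, at an adjusted p under 0.05, the count was 0 in each. The largest single mutant difference from the control among the small peptide genes was that of Eig71Ec in the Sep2 mutant (-2.26, SE 1.34, limma adjusted p = 0.341). With 3 libraries and Sep5 mutant replicate 2 far above replicates 1 and 3, the SD of Eig71Ea in the Sep5 mutant was 2.53 on the log2 scale.

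**Figure D4:**
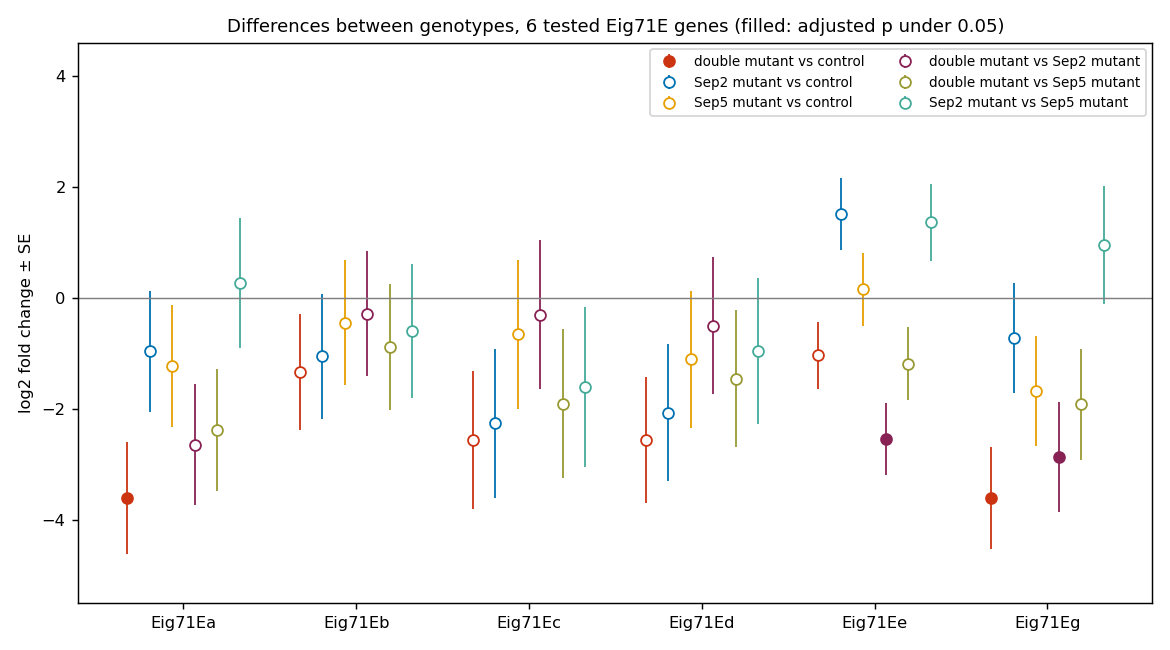
Points give the limma log2 fold change of the 6 tested Eig71E genes in 6 comparisons of genotypes, bars the SE, and filled points an adjusted p under 0.05. Filled points are Eig71Ea and Eig71Eg for the double mutant against the control and Eig71Ee and Eig71Eg for the double against the Sep2 mutant.

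Eip93F, which encodes a transcription factor needed for the death of the larval salivary gland, was high in the 3 libraries where the small peptide genes were, and also in control replicate 4, where they were lower. It stood at 91.3, 37.0, 22.0 and 47.7 CPM in the control, at 24.3, 14.1 and 13.6 CPM in the Sep2 mutant, at 8.92, 58.0 and 8.66 CPM in the Sep5 mutant and at 8.64, 8.14, 6.43 and 4.78 CPM in the double mutant. Among tested genes that are no members, it had the pattern most like the sum of the 9 members without Eig71Ee (Pearson r = 0.925 over 14 libraries, Spearman rho = 0.912). Without the 2 libraries farthest from the median r was 0.853, and with genotype means taken off it was 0.922. CG34244 (0.922), CG32762 (0.902), Strip (0.886) and b (0.880), which encodes an aspartate decarboxylase, came next. CG34244 stood at 232, 156, 8.40 and 17.2 CPM in the control and at 189 CPM in Sep5 mutant replicate 2. For Eig71Eg alone the highest r values were those of the serpin gene Spn100A (0.951), the ubiquitin ligase gene Ube4B (0.950), CG13907 (0.944), bchs (0.937) and the repressor gene Blimp-1 (0.937). Without the 2 libraries farthest from the median of Eig71Eg these were 0.925, 0.952, 0.953, 0.913 and 0.927, in that order, and all are descriptions.

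Most of the listed ecdysone regulators fell in the double mutant. Of 16 ecdysone regulators, all tested, 11 fell and 2, ftz-f1 (1.18) and Hr38 (1.93), rose relative to the control. In that comparison 22.5% of all 12586 tested genes were called lower, and 2832 were called higher. The median log2 fold change of the 16 was -1.18, against -0.01 over all tested genes. By limma br was at -2.54 (SE 0.26, adjusted p = 1.30e-05), E23, which encodes an ABC transporter, at -3.57 (SE 0.47, adjusted p = 8.23e-05), Eip75B at -1.64 (SE 0.26, adjusted p = 0.000318) and Blimp-1 at -2.58 (SE 0.44, adjusted p = 0.000486). Eip74EF, named as a known regulator of the L71 genes after its value was seen, was at -1.01 (SE 0.21, adjusted p = 0.00204). The br level was 1734 to 3172 CPM in control larvae and 1557 to 2137 CPM in Sep2 mutants, and 853 to 1692 CPM in Sep5 mutants and 361 to 430 CPM in double mutants. None of the 16 was called in either single mutant against the control, beside 4.50% (Sep2) and 5.13% (Sep5) of all tested genes. In the double against the Sep2 mutant 1 rose and 9 fell, beside 2016 of 12586 called higher and 12.9% lower. Against the Sep5 mutant 2, br and E23, fell, beside 472 of 12586 called lower. Markers of prepupae, 8 genes, summed to between 995 and 2440 CPM in control larvae and 2129 and 2742 CPM in Sep2 mutants, and to between 1517 and 2129 CPM in Sep5 mutants and 968 and 2092 CPM in double mutants. Of the 6 tested, 1 rose and 2 fell in the double mutant relative to the control, beside 2832 higher and 2826 lower of 12586 genes. The part of these regulators or of the stage of the larvae in the Eig71E values was not tested.

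Of 8 salivary gland regulators, 3 fell and none rose in the double mutant relative to the control, beside 22.5% of all tested genes called lower. They were Eip93F, which is also one of the 16 ecdysone regulators (-2.66, SE 0.54, limma adjusted p = 0.00155), the cell death gene hid (-1.34, SE 0.33, adjusted p = 0.00470) and the apoptosome gene Dark (-0.88, SE 0.31, adjusted p = 0.0323). None was called in the single mutants, beside 4.50% of all tested genes in Sep2 and 5.13% in Sep5. Of 11 glue and new-glue genes 10 were tested, and in the double mutant 6 fell and 3 rose relative to the control. All tested genes, 12586, held 2826 called lower and 2832 called higher there. Those that rose were the new-glue genes ng1 (4.21, SE 0.64, limma adjusted p = 0.000226), ng2 (5.58, SE 0.65, adjusted p = 4.00e-05) and ng3 (2.87, SE 0.54, adjusted p = 0.000953), which are expressed in the gland before the Sgs genes reach their peak. Those that fell were Sgs1, Sgs3 (-2.09, SE 0.62, limma adjusted p = 0.0133), Sgs5, Sgs5bis, Sgs7 and Sgs8, and Sgs4 stood at -0.60 (SE 0.74, adjusted p = 0.532). In the single mutants ng2 rose in Sep2 (4.12, SE 0.71, limma adjusted p = 0.00350), and ng1 (2.79, SE 0.69, adjusted p = 0.0310) and ng3 (2.27, SE 0.58, adjusted p = 0.0379) rose in Sep5. Among the 12586 tested genes, 410 were called higher in Sep2 and 490 in Sep5. Of 7 other ecdysone-induced genes 5 were tested, and in the double mutant Cth (0.61) and Eip63F-1 (0.60) rose and Eip63E fell (-0.62, SE 0.18, limma adjusted p = 0.0115). These calls stand beside the same 2832 higher and 2826 lower of 12586 tested genes.

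The genes CG43084 and CG43083, which lie among and beside the small peptide genes, had Pearson r of -0.33 and -0.15 with the sum of the 9 members without Eig71Ee over the 14 libraries. With Eig71Ee their r values were 0.40 and 0.74, in the same order. CG43084, between Eig71Eb and Eig71Ec (15650852 to 15651392, plus strand), stood at 1.59 to 4.03 CPM in the control and 1.14 to 18.6 CPM in the double mutant. CG43083, which abuts Eig71Ea, stood at 2.50 to 6.78 CPM in the control and 1.25 to 16.4 CPM in the double mutant. Neither passed the limma test for the double mutant against the control, with CG43084 at 1.33 (SE 0.64, adjusted p = 0.108) and CG43083 at 0.31 (SE 0.61, adjusted p = 0.703). Eig71Ek, the divergent partner of Eig71Ej, had 12 reads in all, each in control replicates 1 and 2 or Sep5 mutant replicate 2. Within 20 kb, comm3 stood at 29.7 to 48.8 CPM in all libraries, CG43082 and CG7304 had 29 and 21 reads in all, and lncRNA:CR45977, which lies on the strand opposite to comm3 within it, fell in the double mutant (-0.996, SE 0.32, limma adjusted p = 0.0220).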

How the data were processed

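The authors deposited 1 table of log2 CPM values per gene and library, scaled between libraries by TMM, per the series text. Per the submitters' processing notes the tools included STAR 2.7.11b, cutadapt 3.5, edgeR 3.40 and FastQC 0.11.9, with the builds dm6 and BDGP6. The read counter and its strand setting are not given in the sources used here. With the floor (-3.65 log2 CPM) subtracted on the linear scale, all 212109 values above it were whole numbers of reads within 0.01 (100%), with 2 reads added on average, and reads are given from this. The test of differences was limma (version 3.58.1, R 4.3.3, trend and robust), in 1 fit of 14 libraries by genotype over the 12586 genes above 0 log2 CPM in at least 3 libraries, with Benjamini-Hochberg adjustment over all of them and a threshold of 0.05. The fit was tested on simulated data drawn with the same spread for all genes. That does not show how it treats genes as variable as the small Eig71E genes. Intervals of rates are exact at 95% and cover counting error only, since reads are not independent molecules. Floors leave out the counting error of the control as well. Nothing states that libraries of a group came from separate cultures, so p-values measure the spread between these libraries, which may be technical. The members and the gene lists were chosen with earlier results of these data known. All members were named; of each list, counts and up to 4 genes with the smallest adjusted p; as patterns, the 5 genes with the highest r with the summed members. Patterns for single members and for the 9 without Eig71Ee, and list genes beyond that rule, were chosen after the values were seen. After group means were subtracted, libraries with the same number in control and Sep2 mutant had correlations of 0.305, 0.452 and 0.166. All exceeded 0.1, unlike those of any other groups. The test itself did not pair libraries, and the replicate number entered only as a block over all 14 libraries in an alternative. Alternatives were the filter, the added count, the scaling, the variance model, voom, the block, the libraries fitted and each library left out. Coordinates and exon lengths are those of Ensembl release 115. Sequences of the genes are not used here.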

Additional observations from a re-analysis of the deposited data

Results flagged for a closer look

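Among the 20 combinations of an Eig71E gene and a genotype with 4 libraries, 4 held a library whose gap to the nearest other, as a share of the group's range, was 1, above Dixon's critical value at 95%. In each the other 3 libraries were at the floor, and the library apart held 1 or 2 reads. With 3 values tied the share is 1 whatever the read count. The rate of about 1 in 20 groups marked by chance holds for continuous values and not for such ties. They were Eig71Ec in double mutant replicate 2 (1 read), Eig71Eh in control replicate 1 (2 reads), Eig71Ei in control replicate 1 (2 reads) and Eig71Ei in double mutant replicate 2 (1 read).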

How the results depend on the processing

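No member changed direction while called under any alternative. The 2 members called for the double mutant against the control were 1, Eig71Ea, under a stricter filter, which removed Eig71Eg from the test, and 2 to 3 with 1 library left out. For the double against the Sep2 mutant the count of 2 was 1 without a filter, with the stricter filter, with 1 CPM added, with quantile normalization and by voom, with Eig71Ee called in each, and 1 to 3 with 1 library left out. With quality weights the Sep2 mutant against the control and the interaction each had 1 call, Eig71Ee, in place of 0, and leaving out 1 library gave 0 to 1 for the interaction. With the replicate number as a block, 3 members were called for the double mutant against the control, and 0 for the Sep2 mutant against the control and for the interaction. Eig71Ef, Eig71Eh, Eig71Ei and Eig71Ej have a value without a filter only. One read was worth 0.0194 to 0.134 CPM, which bounds how low a level could be seen in a library. The pooled rates of Eig71Ea, Eig71Ef and Eig71Eg with 1 library left out were added after the data were seen. The cause of these changes was not tested, other than the genes a filter removed.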
